A study of Arabidopsis thaliana and Arabidopsis thaliana x Arabidopsis arenosa with 9 samples.

Results

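The loci described here are those of the pericentromeric regions of the 5 Arabidopsis thaliana chromosomes. They were chosen by locus number alone, from AT1G36000 to AT1G42499, AT2G07000 to AT2G13999, AT3G30300 to AT3G42599, AT4G05200 to AT4G08499 and AT5G28100 to AT5G34999. This rule took 2998 of the 33602 loci counted, and the other 30325 nuclear loci served for comparison. Whole seeds were collected 3 days after pollination from a pair of reciprocal crosses between the accessions Col-0 and C24. In Col-0 X C24 the seed parent was ColA9, pollinated by wild-type C24, and in C24 X Col-0 it was C24A9, pollinated by wild-type Col-0. The seeds are called ColA9 and C24A9 after their seed parents from here on. Both seed parents were hemizygous for a male sterility construct, so no flower of either cross was emasculated. Each cross had 2 biological replicates, each made from seeds pooled over many siliques, and replicate 2 of both crosses was treated with duplex-specific nuclease and reamplified before sequencing. A whole seed at this stage holds the embryo, the endosperm and the maternal seed coat, so fewer cells of a type and less RNA per cell cannot be told apart.

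Pericentromeric chromatin flanks the centromeres. In A. thaliana it is rich in transposable elements and their remnants, and most of it is kept silent by DNA methylation, histone H3 lysine 9 methylation and small RNAs. It also holds single-copy genes that are transcribed, arrays of ribosomal RNA repeats and, on chromosome 2, a large insertion of mitochondrial DNA. Transcripts of transposable elements in seeds have drawn attention because the endosperm loses part of the DNA methylation of its maternal genome. In TAIR10.1 coordinates the members spanned 13.4 to 15.9 Mb of chromosome 1, 2.90 to 5.88 Mb of chromosome 2, 11.9 to 14.7 Mb of chromosome 3, 2.68 to 5.402 Mb of chromosome 4 and 10.1 to 13.3 Mb of chromosome 5. One member of chromosome 3 was annotated outside its span.

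The label held in the annotation. Of the members, 2312 (77.1%) were annotated as pseudogenes, the class in which this annotation places transposable element genes, against 8.33% of the other nuclear loci. A further 583 were protein-coding, 47 gave other RNAs (tRNA, rRNA, miRNA and non-coding RNA) and 56 were not matched to the annotation. The member pseudogenes were mostly single exons (87.2%), with a median length of 1857 bases. In 57.6% of those long enough to test, at least 1 window of 80 bases recurred exactly elsewhere in the nuclear genome, against 41.1% of the other nuclear pseudogenes and 7.04% of the other nuclear protein-coding genes. At least 10% of the windows stood also in the transcript of another locus in 526 member pseudogenes (22.8%). Reads of such loci cannot be assigned to 1 locus with certainty. The median GC content of the members was 42.1% and that of the other nuclear loci 41.3%.

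Several members carry sequences that bear on the counts below. AT4G06477 (chr4:3060975-3065294, minus strand, an uncharacterized pseudogene of 4320 bases) took more reads than any other member, and its last 580 bases belong to a tandem repeat. Its unit begins at base 3741 of the locus and is 496 bases long. The first 300 bases of the unit are shown because that stretch recurs many times in the genome, and capitals mark the bases that are identical 496 bases downstream, as far as the locus reaches (81 of 84).
AT4G06477, chr4:3061255-3061554, minus strand: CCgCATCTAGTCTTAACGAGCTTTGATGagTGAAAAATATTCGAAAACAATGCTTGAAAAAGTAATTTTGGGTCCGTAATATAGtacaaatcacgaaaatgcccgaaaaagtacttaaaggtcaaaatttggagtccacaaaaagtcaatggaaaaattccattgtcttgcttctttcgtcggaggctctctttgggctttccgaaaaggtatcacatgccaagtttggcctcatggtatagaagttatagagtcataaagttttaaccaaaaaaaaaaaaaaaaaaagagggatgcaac
By blastn, 429 to 500 places of the nuclear genome matched the whole 100-base bins of that stretch, against a median of 21 places for the bins before it. Matches of 400 bases or more numbered 347 on chromosome 3 with a median identity of 82.3%, 71 on chromosome 5 with 91.0% and 13 on chromosome 4 with 97.9%, with 6 on chromosome 1 and 1 on chromosome 2. Tandem arrays of 5S ribosomal RNA genes are known from the pericentromeric regions of chromosomes 3, 4 and 5 of this species, but no annotation used here says whether the repeat belongs to them. Counts are given per locus, so the reads could not be placed along it.

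**Figure D1:**
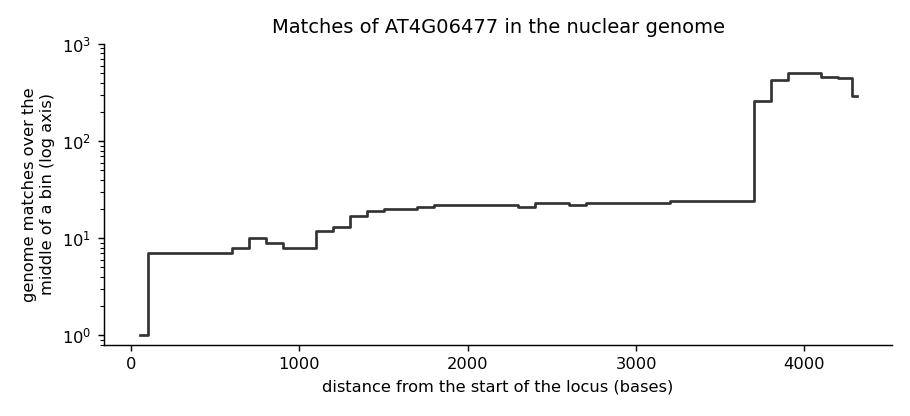
Number of blastn matches in the nuclear genome that cover the middle of each 100-base bin of AT4G06477 (log axis), against the distance from the start of the locus in bases. The bins before the repeat sit at a median of 21 matches, and the whole bins inside it between 429 and 500.

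Sadhu elements are short non-coding retrotransposons that are present in few copies in A. thaliana. The annotation names 16 of them among the counted loci, 4 of which are members (SADHU1-1, SADHU1-3, SADHU4-1 and SADHU7-2), and 3 of these differed between the crosses in opposite directions. The 250 bases before to 50 after their annotated starts are shown to compare elements of the same family. Capitals mark GGACAATCGTTCC, the longest run of bases that the 3 regions share.
SADHU1-1 (AT2G10410), chr2:4006995-4007294, minus strand: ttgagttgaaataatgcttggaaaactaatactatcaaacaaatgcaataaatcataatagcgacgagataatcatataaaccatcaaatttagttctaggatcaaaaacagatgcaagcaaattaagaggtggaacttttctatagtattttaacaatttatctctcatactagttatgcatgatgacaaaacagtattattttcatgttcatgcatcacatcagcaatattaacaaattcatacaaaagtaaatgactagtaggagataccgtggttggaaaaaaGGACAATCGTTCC
SADHU1-3 (AT5G28626), chr5:10631991-10632290, plus strand: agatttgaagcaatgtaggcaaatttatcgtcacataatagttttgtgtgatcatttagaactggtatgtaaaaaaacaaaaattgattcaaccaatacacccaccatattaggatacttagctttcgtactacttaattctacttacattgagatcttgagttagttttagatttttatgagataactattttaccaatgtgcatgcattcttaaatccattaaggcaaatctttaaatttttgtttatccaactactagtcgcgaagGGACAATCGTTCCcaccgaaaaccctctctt
SADHU4-1 (AT5G28913), chr5:10934681-10934980, minus strand: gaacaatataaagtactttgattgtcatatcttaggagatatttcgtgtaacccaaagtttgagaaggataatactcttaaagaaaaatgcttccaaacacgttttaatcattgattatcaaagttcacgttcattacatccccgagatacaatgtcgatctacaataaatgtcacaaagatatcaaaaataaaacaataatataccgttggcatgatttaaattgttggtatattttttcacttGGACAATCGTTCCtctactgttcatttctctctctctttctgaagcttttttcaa
The run begins 37 bases after the start of SADHU1-1, 19 after that of SADHU1-3 and 5 before that of SADHU4-1. Searched on both strands in the same window of 32835 nuclear loci, it occurred in 6 (0.0183%), all of which were Sadhu loci. The 3 regions held 4, 6 and 7 CG dinucleotides, the site of the most stable form of plant DNA methylation, against a median of 7 at member pseudogenes and 6 over all nuclear loci.

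A window of AT3G30695 (chr3:12247335-12253398, minus strand, an uncharacterized pseudogene of 6064 bases) is shown because this locus had reads in only 1 of the crosses and shares sequence with others. Among windows taken every 20 bases it had the most exact copies in the nuclear genome, 14, counting itself.
AT3G30695, chr3:12252779-12252858, minus strand: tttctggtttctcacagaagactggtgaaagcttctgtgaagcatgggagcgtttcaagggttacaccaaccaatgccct
AT2G07783 (chr2:3297892-3299395, plus strand), a pseudogene inside the mitochondrial insertion of chromosome 2, holds a run of 1452 bases identical to the mitochondrial genome. The window below lies in the middle of that run and matches mitochondrial positions 316753 to 316832 exactly, within ccmFN1, a gene of cytochrome c maturation.
AT2G07783, chr2:3298630-3298709, plus strand: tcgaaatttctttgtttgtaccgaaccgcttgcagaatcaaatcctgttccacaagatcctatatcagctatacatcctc
For such a locus, reads from the chromosome and from the organelle are the same.

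One library stood apart before any comparison. The libraries held 6498145 and 3538335 reads in ColA9 seeds and 6101597 and 5521691 in C24A9 seeds. C24A9 replicate 2 detected far more loci than the other 3 libraries, among the members and outside them. To set aside depth, the number of loci with at least 1 read was computed for a draw of 3538335 reads from each library. At that depth 3.10% and 6.96% of the member pseudogenes had a read in replicates 1 and 2 of ColA9 seeds, 7.32% in C24A9 replicate 1 and 69.5% in its replicate 2. The other nuclear pseudogenes had a read in 9.98%, 16.2%, 10.03% and 67.8% of cases in the same order. Of member protein-coding genes 37.0%, 38.8%, 34.8% and 69.3% had a read, and of the other nuclear protein-coding genes 72.1%, 73.6%, 69.7% and 91.7%. The share was below that of other nuclear loci of the same class in each library, except that C24A9 replicate 2 had 69.5% of the member pseudogenes and 67.8% of the others. Between the crosses the number of member loci detected averaged 346 ± 70.5 (SD, n = 2) and 1206 ± 1170 (SD, n = 2) at equal depth, a difference within the spread of the replicates (exact permutation test, two-sided, p = 0.667, where 0.3333 is the smallest p that 2 against 2 libraries can give). Without C24A9 replicate 2 the difference fell from 860 to 33.3 loci.

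**Figure D2:**
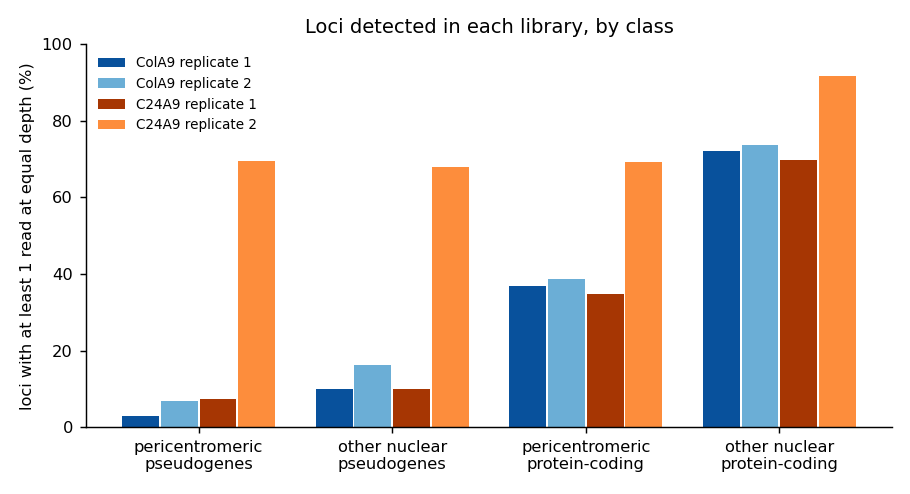
Percentage of loci with at least 1 read (vertical axis) in a draw of 3538335 reads from each of the 4 libraries, by class of locus. C24A9 replicate 2 reached 69.5% of the member pseudogenes, and the other 3 libraries between 3.10% and 7.32%.

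No read was counted in any library for 747 members, and 1609 members, of which 1420 were pseudogenes, had reads only in C24A9 replicate 2. These 1609 loci had a median of 4 reads each and 12250 reads together in that library. The highest were uncharacterized pseudogenes, AT4G06499 with 123 reads, AT5G33381 with 105, AT4G08053 with 82, AT4G05635 with 78 and AT5G32002 with 76. At the other end, 221 members had a read in every library. Of the 2533 members without a read in ColA9 seeds, 6.99% had a read in C24A9 replicate 1, against 8.40% of such loci elsewhere. Those of the 2533 with more reads in C24A9 replicate 2 were also more often seen in its replicate 1. A read in replicate 1 was present for 6 of 753 loci with no read in replicate 2, 33 of 911 with 1 to 4 reads, 61 of 656 with 5 to 19, 54 of 167 with 20 to 49, 12 of 33 with 50 to 99 and 11 of 13 with 100 or more.

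Members took 1.24% of the reads of nuclear loci in ColA9 replicate 1 (95% Wilson interval 1.23 to 1.25), 1.04% in its replicate 2 (1.03 to 1.05), 1.30% in C24A9 replicate 1 (1.29 to 1.31) and 2.76% in its replicate 2 (2.75 to 2.78). The intervals cover counting error only. The shares of the crosses, 1.14 ± 0.144% and 2.03 ± 1.04% (SD, n = 2), differed by 0.889 percentage points, with p = 0.3333 in the two-sided exact permutation test, the smallest it allows. Without C24A9 replicate 2 the difference was 0.157 points. Most of this difference lay in AT4G06477. This locus had 979 and 106 reads in replicates 1 and 2 of ColA9 seeds and 9660 and 61320 in C24A9 seeds, or 0.0151%, 0.00300%, 0.159% and 1.12% of nuclear reads. It was 10.5 times as high in C24A9 seeds within replicate 1 and 373 times within replicate 2. In edgeR's quasi-likelihood test its log2 fold change of ColA9 over C24A9 was -6.134 ± 1.501 (SE) with an adjusted p of 0.427, and -6.27 with an adjusted p of 0.337 when the replicate number entered as a block. DESeq2 called it, with an adjusted p of 1.41e-08 without the block and 0.00537 with it. Without AT4G06477 the shares were 1.23% and 1.04% in ColA9 seeds and 1.14% and 1.64% in C24A9 seeds, a difference of 0.258 percentage points (exact permutation test, p = 0.667). Without AT4G06477 and the 18S ribosomal RNA locus AT3G41768 it was 0.0852 points (exact permutation test, p = 1).

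Protein-coding members took 0.961% and 0.902% of nuclear reads in ColA9 seeds and 0.742% and 0.898% in C24A9 seeds. The 47 other RNAs took 0.227%, 0.0673%, 0.368% and 0.266% in the same order, nearly all of it at AT3G41768, an annotated 18S ribosomal RNA gene with 14522, 2183, 22341 and 14416 reads. Of the windows of AT3G41768 90.7% stand also in another transcript, so its reads cannot be assigned to this locus with certainty. Ribosomal RNA was lowest in a nuclease-treated library, ColA9 replicate 2, but the treatment cannot be told apart from other differences between the replicates. The 2312 pseudogenes took 0.0537%, 0.0701%, 0.187% and 1.60%. Leaving out AT4G06477 changed their order, since C24A9 replicate 1 then had the lowest share, 0.0280% against 0.0386% and 0.0671% in ColA9 seeds, and only its replicate 2 stood higher, at 0.475%. Leaving out the mitochondrial insertion as well gave 0.0304%, 0.0367%, 0.0184% and 0.406%. The nuclear pseudogenes outside the members' ranges took 0.126%, 0.146%, 0.0821% and 0.422%.

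By chromosome, the members of chromosome 4 showed the greatest spread, from 0.220% of nuclear reads in ColA9 replicate 2 to 1.41% in C24A9 replicate 2. Those of chromosome 3 ranged from 0.208% to 0.490%, of chromosome 2 from 0.124% to 0.327%, of chromosome 5 from 0.228% to 0.357% and of chromosome 1 from 0.112% to 0.1797%. C24A9 replicate 2 was the highest library on each of the 5 chromosomes, and it detected between 70.7% and 80.1% of the members of each.

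**Figure D3:**
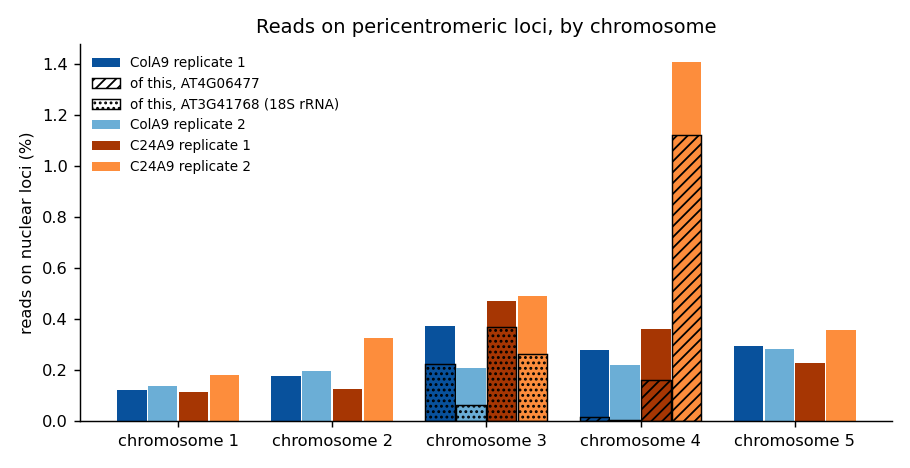
Percentage of the reads on nuclear loci (vertical axis) that fell on the members of each chromosome, in the 4 libraries, with the parts from AT4G06477 (hatched, chromosome 4) and the 18S ribosomal RNA locus AT3G41768 (dotted, chromosome 3). On chromosome 4 C24A9 replicate 2 reached 1.41%, of which AT4G06477 gave 1.12%. Reads of AT3G41768 cannot be assigned to that locus with certainty.

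The 8 protein-coding members of highest level were taken by rule. BIP1, an endoplasmic reticulum chaperone, had 9807 and 3317 reads in replicates 1 and 2 of ColA9 seeds and 7720 and 5696 in C24A9 seeds. UBQ10, a polyubiquitin gene, had 8621, 2361, 7079 and 4836 reads in the same order, and ERD5, the proline dehydrogenase, 5129, 2092, 2777 and 2420. ACC1, the cytosolic acetyl-CoA carboxylase, had 1539, 1348, 2722 and 2014 reads. The others were AT3G42050, a vacuolar ATP synthase subunit, AT1G41880, a ribosomal protein L35Ae gene, AT2G09990, a ribosomal protein S5 domain gene, and NAD-ME1, a mitochondrial malic enzyme. The log2 fold changes of these 8 genes lay between -1.06 and 0.26 and none passed edgeR's test without the block, in which their lowest adjusted p was 0.836. With the block only AT2G09990 did, at -1.33 ± 0.31 (adjusted p = 0.0228). It had 1144 and 80 reads in ColA9 seeds and 1445 and 373 in C24A9 seeds, so that the replicates differed more than the crosses. Its log2 ratio was -0.96 within replicate 1 and -1.73 within replicate 2. In the fit without the block its log2 fold change turned from -1.06 to 0.67 when C24A9 replicate 1 was left out.

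Few members of the other role groups passed edgeR's test, which called 0% of all tested loci without the block and 6.66% with it. Of 8 genes of chromatin and replication, all were tested and none was called in either edgeR fit. They include DAYSLEEPER, a gene derived from a hAT transposase that is needed for normal growth (548, 328, 554 and 499 reads in the order used above), DDB1A of the damaged DNA-binding complex (536, 356, 326 and 428), GTA2, an SPT5 transcription elongation factor (381, 265, 305 and 407), and ABH1 of the nuclear cap-binding complex (330, 284, 215 and 287). None of the 4 genes of lipid and sterol metabolism was called, among them CAS1, the cycloartenol synthase (250, 149, 162 and 118), and MGDC, a galactolipid synthase (151, 88, 212 and 129). ACC2, the plastid counterpart of ACC1, had 28, 18, 24 and 67 reads. Of 6 metabolic genes 5 were tested and none was called, with the phosphatase gene PAP26 at 1095, 700, 524 and 711 reads and the plastid phosphate translocator CUE1 at 947, 649, 620 and 774.

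Of 6 genes of the cell wall and surface, SKS6 alone was called with the block. SKS6 is similar to the multicopper oxidase SKU5, and it had 145 and 80 reads in ColA9 seeds and 320 and 265 in C24A9 seeds, a log2 fold change of -1.52 ± 0.29 (adjusted p = 0.00739 in edgeR with the block and 0.455 without it). GME, an enzyme of ascorbate and cell wall sugar synthesis, had 954, 699, 628 and 779 reads, XGD1, a xylogalacturonan xylosyltransferase, 675, 475, 627 and 1039, and ABCG5, a transporter, 116, 62, 16 and 52. AT5G33370, a lipase-like gene, had 101 and 0 reads in ColA9 seeds and 42 and 56 in C24A9 seeds. Of 9 developmental regulators 4 were tested and none was called. PHL1, a phosphate starvation regulator, had 103, 106, 50 and 114 reads, AN3, a coactivator of leaf growth, 20, 35, 20 and 33, and the bZIP factor BZO2H3 9, 20, 2 and 47. KNAT1, a homeobox gene of the shoot meristem, had 1, 0 and 1 reads in the first 3 libraries and 71 in C24A9 replicate 2. No pollen gene was tested. CALS5, CHX15, PRK2A and ANX2 had 0 or 1 read in replicates 1 and 2 of ColA9 seeds, 6 reads at most in C24A9 replicate 1 and 6 to 12 in its replicate 2.

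Of 2998 members, 204 had at least 10 reads in at least 2 libraries and could be tested between the crosses, 161 of them protein-coding, 38 pseudogenes and 5 other RNAs. A pseudogene seen mainly in C24A9 replicate 2 needed a second library to enter. In edgeR's quasi-likelihood test with Benjamini-Hochberg adjustment over all 16779 tested loci, 0 members passed an adjusted p of 0.05, as did 0% of all tested loci. An unadjusted p under 0.05 was reached by 41 members (20.1%), against 7.46% of all tested loci, and DESeq2 called 18 members (8.82%), against 1.8% of all tested loci. The median log2 fold change was -0.10 in the members and -0.01 over all tested loci, and -0.08 and 0.01 with the block. With the replicate number as a block, edgeR called 31 members (15.2%), against 6.66% of all tested loci. Of these, 13 were higher in ColA9 seeds (6.37%, against 2.24% of all tested loci) and 18 lower (8.82%, against 4.42%). By class, 17 of 38 tested pseudogenes (44.7%), 11 of 161 protein-coding genes (6.83%) and 3 of 5 other RNAs were called. Among the other nuclear loci these classes were called in 22.6%, 6.28% and 14.7% of cases. A locus near 0 in one cross enters the test only through the other cross and then has to differ. Under 10 reads in both libraries of 1 cross were counted in 11 of the 17 called pseudogenes and 19 of the 38 tested, in 28 of the 204 tested members (13.7%) and in 2.87% of all tested loci. The members' shares of calls, of folds and of crosses without overlap include these loci and are not a result about the pericentromeres. With the block, DESeq2 called 16 of the 31 members that edgeR called. The 7 called members with 0 reads in both libraries of ColA9 seeds were not among the 16, with adjusted p from 0.175 to 0.518 in DESeq2.

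The block was used because replicate 2 of both crosses had the same extra treatment, and the libraries differed together by replicate. The difference between replicates 2 and 1 correlated between the crosses across 16779 tested loci (Pearson r = 0.561), and across the 204 tested members (r = 0.564). These are correlations across genes, which are not independent replicates. Among all tested members 45 of 204 (22.1%) differed over 2-fold the same way within both replicate numbers, against 8.89% of all tested loci. Both libraries of one cross lay above both of the other in 97 of the 204 tested members (47.5%), against 36.8% of all tested loci.

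**Figure D4:**
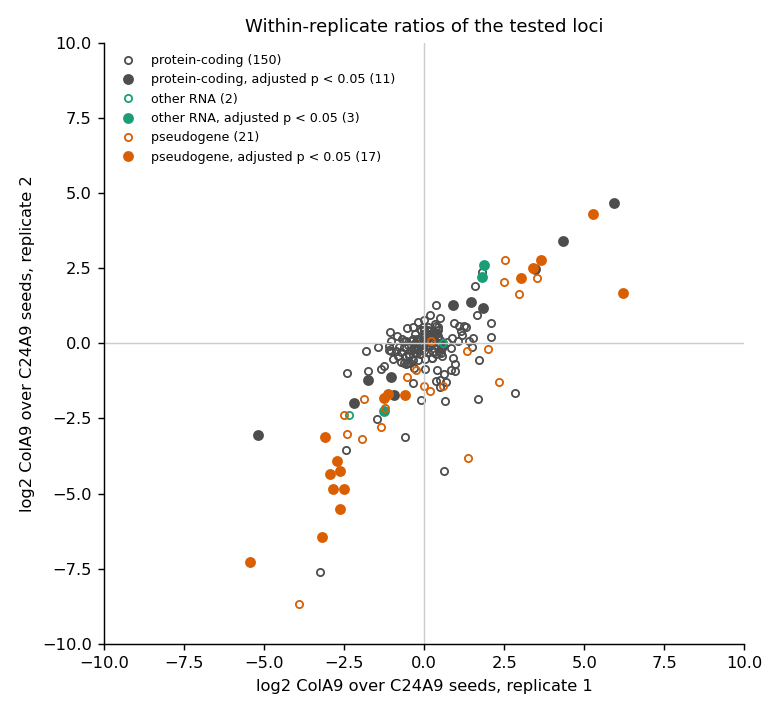
Log2 ratio of ColA9 over C24A9 seeds in replicate 1 (horizontal) and replicate 2 (vertical) for the 204 tested members, from CPM plus 0.5, where CPM are TMM-scaled reads per 1000000. Filled points are the 31 members called by edgeR with the replicate number as a block, and 45 of the 204 lie beyond 2-fold the same way in both replicates.

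The 13 called members that were higher in ColA9 seeds were 6 protein-coding genes, 5 pseudogenes and 2 other RNAs. AT2G11240 (chr2:4477686-4483748), an uncharacterized pseudogene without any repeated window, had 301 and 257 reads in ColA9 seeds and 3 and 15 in C24A9 seeds, with no overlap of the crosses. Its log2 fold change with the block was 5.02 ± 0.42 (adjusted p = 1.79e-05), and without the block 4.96 ± 0.61 (adjusted p = 0.143). ALD1 (chr2:5768417-5772266), an aminotransferase that makes the immune signal pipecolic acid, had 194 and 351 reads against 0 and 16. Its log2 fold change was 5.44 ± 0.53 (adjusted p = 0.000245 with the block and 0.364 without). AT4G07825 (chr4:4643747-4645338), an uncharacterized protein-coding gene, had 156 and 113 reads against 3 and 12, a log2 fold change of 4.18 ± 0.49 (adjusted p = 0.000289 and 0.166). The pseudogene AT4G08110 had 57 and 58 reads against 1 and 9 (log2 fold change 3.72 ± 0.70, adjusted p = 0.00664 and 0.416). QQS (chr3:12349047-12349933), a gene of starch metabolism known only from this species, had 49 and 14 reads against 1 and 1. Its log2 fold change was 4.495 ± 1.17 (adjusted p = 0.0371 and 0.389, and 0.0591 in DESeq2 with the block). PCN, a WD-40 protein gene of the meristems and the embryo, had 262 and 244 reads against 61 and 130 (log2 fold change 1.42 ± 0.29, adjusted p = 0.0101 and 0.455). It shares 16.2% of its windows with another transcript.

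The 18 called members that were lower in ColA9 seeds were 12 pseudogenes, 5 protein-coding genes and the 18S ribosomal RNA locus. AT3G30695, whose repeated window is shown above, had 0 reads in both libraries of ColA9 seeds and 89 and 472 in replicates 1 and 2 of C24A9 seeds. With a floor of 3 reads over the 2 libraries of ColA9 seeds, the mean of its C24A9 libraries was 179 times the floor. That mean rests mostly on replicate 2, with 76.6 CPM against 21.1 in replicate 1. The adjusted p of AT3G30695 in edgeR was 6.44e-06 with the block and 0.195 without it, but 0.175 in DESeq2 with the block. AT2G10280 (chr2:3945969-3953199) had 1 and 0 reads against 23 and 265 (adjusted p = 0.000307 and 0.306). AT5G31999 (chr5:11782797-11784866) had 0 and 0 against 11 and 139 (adjusted p = 0.000897 and 0.431, and 0.405 in DESeq2 with the block). The mean of its C24A9 libraries was 46.0 times the same floor, with 2.61 CPM in replicate 1 and 22.6 in replicate 2. AT4G07965 (chr4:4808635-4809352), a short protein-coding gene of unknown function, was higher in replicate 1 than in replicate 2, with 2 and 2 reads against 123 and 45. Its log2 fold change was -5.51 ± 0.70 (adjusted p = 0.000474 and 0.236). AT4G06598, a basic-leucine zipper gene, had 30 and 21 reads against 97 and 124, with a log2 fold change of -2.21 ± 0.40 (adjusted p = 0.00508 and 0.261). Of the 31 called members 9 share at least 10% of their windows with another transcript, as do 26 of the 204 tested, so their reads are uncertain between copies.

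The Sadhu elements moved in different directions. SADHU4-1 had 288 and 86 reads in ColA9 seeds and 21 and 24 in C24A9 seeds, a log2 fold change of 2.73 ± 0.39 (adjusted p = 0.00104 with the block and 0.297 without). SADHU1-1 was also higher in ColA9 seeds, with 580 and 14 reads against 3 and 4 and a log2 fold change of 5.38 ± 0.97 (adjusted p = 0.0325 and 0.473, and 0.107 in DESeq2 with the block), but its level rested mostly on replicate 1. SADHU1-3 was lower in ColA9 seeds, with 57 and 16 reads against 332 and 216. Its log2 fold change was -3.21 ± 0.32 (adjusted p = 7.59e-05 and 0.317). No read was counted for SADHU7-2. Outside the members' ranges SADHU3-1 had 1 and 0 reads against 773 and 220. SADHU3-2 (chr3:14749400-14750294), which lies just past the members of chromosome 3, had 1 and 3 against 205 and 139. SADHU10-1 had 43 and 5 reads against 242 and 92. All 3 were called with the block (adjusted p = 1.07e-06, 8.90e-05 and 0.000281). SADHU5-1, with 8 and 3 reads against 34 and 41, was called at 0.0425, and SADHU1-2, with 131 and 25 against 122 and 147, was not (adjusted p = 0.105). Of the 6 Sadhu loci that hold the shared run, 4 were lower and 2 higher in ColA9 seeds.

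**Figure D5:**
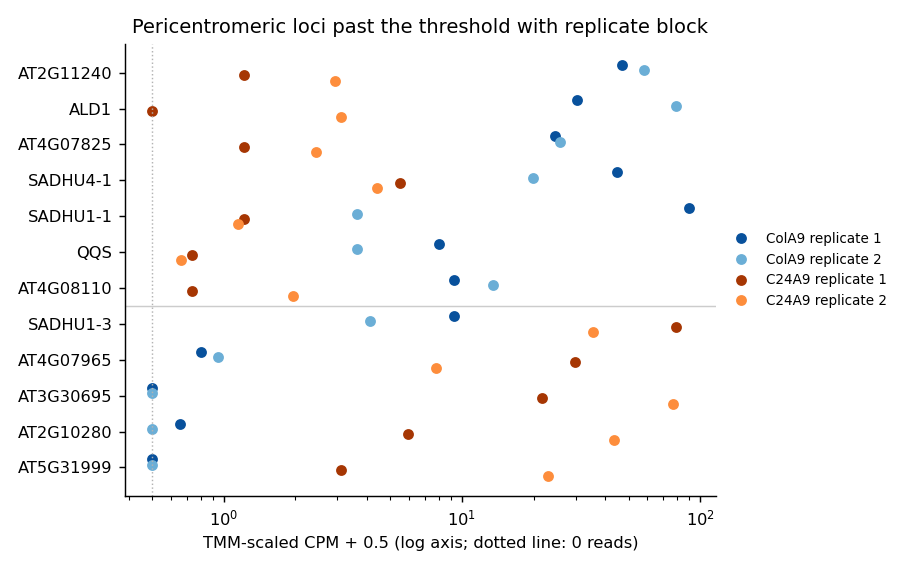
TMM-scaled CPM plus 0.5 (log axis) of 12 members in the 4 libraries, the 7 above the line higher and the 5 below it lower in ColA9 seeds. The 12 were picked from the 31 called members, and the libraries of the crosses do not overlap for any of them. That held for 28 of the 31, against 36.8% of all tested loci. Loci were called because they differed, so this is not a separate result. Points on the dotted line had 0 reads.

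Some members had reads in 1 cross alone. At least 5 reads in both libraries of C24A9 seeds, with 0 in both of ColA9 seeds, were counted for 21 members (0.7005%), 17 of them pseudogenes, against 0.27% of the other nuclear loci. The reverse held for 2 members (0.0667%), against 0.0692% of the other nuclear loci. C24A9 replicate 2, in which most loci had a read, weighs on this count. In replicate 1 alone, 0.869% of the members without a read in ColA9 seeds had at least 5 reads, and 1.23% of such loci elsewhere. Within classes these shares were 0.803% and 0.544% for pseudogenes and 1.54% and 1.68% for protein-coding genes. Of the 21 loci 10 lie on chromosome 4, and 6 of these (AT4G06656, AT4G06664, AT4G06704, AT4G06710, AT4G06712 and AT4G06716) fall within 155829 bases, chr4:3841927-3997755, an interval noticed after the values were seen. It holds 31 members, of which 3 and 3 had a read in ColA9 seeds and 12 and 30 in C24A9 seeds. The 6 loci that set the interval are among these 12 and 30 by selection. Of all members of chromosome 4, 12.6% and 12.8% had a read in ColA9 seeds and 17.5% and 80.1% in C24A9 seeds. The 6 loci had 5 to 11 reads in C24A9 replicate 1 and 8 to 86 in its replicate 2. Of the 21 loci 14 share at least 1 window of 80 bases with another of them, in 21 pairs. AT4G06656 and AT4G06712 share 858 windows and AT3G30695 and AT4G08078 share 449, so the loci are not independent counts. AT5G28280 and AT1G36078 have no repeated window and had 5 and 80, and 7 and 33 reads in C24A9 seeds. Of the 2 loci seen only in ColA9 seeds, AT5G28442 had 30 and 5 reads and AT2G13665, annotated as an antisense transcript, had 8 and 6. AT5G28442 shares 38.3% and AT2G13665 81.1% of its windows with another transcript, so the reads of neither can be assigned with certainty.

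The mitochondrial insertion of chromosome 2 gave 151 members, AT2G07600 to AT2G07849, with 926 and 1462 reads in ColA9 seeds and 818 and 4732 in C24A9 seeds. In 109 of them 50% or more of the windows stand also in the mitochondrial genome. Those 109 loci took 98.95 and 342 reads per 1000000 in replicates 1 and 2 of ColA9 seeds and 110 and 759 in C24A9 seeds, so that replicate 2 was the higher in both crosses. Annotated mitochondrial loci took 993 and 501 reads per 1000000 in ColA9 seeds and 2071 and 3532 in C24A9 seeds. AT2G07783 gave most of the insertion's reads in replicate 2, with 17 and 850 reads in ColA9 seeds and 17 and 2580 in C24A9 seeds. AT2G07080, an uncharacterized pseudogene outside the insertion with 2.43% of its windows in the chloroplast genome, behaved the same way, with 5 and 275 reads and 6 and 1263. These were the only 2 of the 204 tested members that were over 8-fold higher in replicate 2 of both crosses, as were 53 of all 16779 tested loci. AT2G07709 and AT2G07717, pseudogenes of mitochondrial NADH dehydrogenase subunits, had 274 and 95 against 212 and 249 reads, and 67 and 41 against 98 and 190. AT2G07711, a pseudogene of another such subunit, had 128 and 11 against 200 and 62. With the block edgeR called AT2G07711 (log2 fold change -1.54, adjusted p = 0.0236), AT2G07717 (-1.45, 0.0258) and AT2G07080 (-1.58, 0.0217) lower in ColA9 seeds, with adjusted p of 0.866, 0.446 and 0.912 without it. DESeq2 with the block gave 0.0627, 0.0949 and 0.0335. Without C24A9 replicate 1 the log2 fold change of AT2G07711 in the fit without the block turned from -1.35 to 0.15. MCM5, a replication licensing gene numbered within the insertion, has no mitochondrial window and had 250 and 234 reads against 119 and 224.

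Members stood on the study's lists of paternally expressed genes, 2 of 65 on the list from the literature (3.08%) and 5 of 73 de novo candidates in the list as used here (6.85%), where members are 8.92% of all loci counted. The counts here sum both parental alleles and say nothing of parental origin. AT5G28300, a trihelix transcription factor gene of the first list, had 278 and 295 reads in ColA9 seeds and 63 and 447 in C24A9 seeds and was not called (adjusted p = 0.9496 in edgeR, 0.409 with the block). AT4G05470, an RNI-like gene of the same list, had 2, 5, 0 and 3 reads. The de novo candidates were defined in Col-0 X A. arenosa seeds, and the paper describes their expression in A. thaliana seeds as low or absent. The 5 among the members were barely seen in the crosses used here. AT1G36240 and AT2G07640 had no read, and AT2G07696, AT2G07712 and AT2G07725 had 2, 1, 0 and 2, 3, 3, 0 and 3, and 2, 2, 0 and 13 reads. For the last 3, all within the mitochondrial insertion, 83.0% to 100% of windows stand in the mitochondrial genome.

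A list of 22 genes outside the members' ranges holds mostly genes that silence transposable elements, such as DDM1 and MET1. It also holds genes that remove DNA methylation, such as DME. All 22 were tested. Without the block edgeR called 0 of them, as it did 0% of all tested loci, and with the block 0, against 6.66%. Without the block 1 had an unadjusted p under 0.05, against 7.46% of all tested loci. Their log2 fold changes had a median of 0.17, against -0.01 over all tested loci, and 13 of the 22 were above 0. Their summed level was 489 and 655 CPM in ColA9 seeds and 494 and 548 in C24A9 seeds. The 6 seed coat markers summed to 4128 and 2692 reads per 1000000 in ColA9 seeds and 6606 and 2789 in C24A9 seeds, the 6 endosperm markers to 40.1 and 81.7 against 67.6 and 114, and the 4 embryo markers to 161 and 169 against 176 and 99.5. Of markers named for other tissues, the 6 pollen markers summed to 4.91 and 5.16 against 2.61 and 18.0, with 2, 2, 4 and 1 of them at 0, and the single tapetum marker was at 0 throughout. The 4 leaf markers summed to 763 and 301 against 1893 and 1026, and the 2 root markers to 15.2 and 13.2 against 30.4 and 21.4. Seed tissues may express leaf and root markers too, which was not tested. With the block edgeR called both tested leaf markers lower in ColA9 seeds and 1 of 6 seed coat markers higher. The part of other tissues in the members' counts was not tested.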

How the data were processed

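Seeds are named by their seed parent, ColA9 or C24A9. The deposited file holds raw read counts for 33602 loci, which the authors made by aligning mRNA-seq reads of whole seeds to TAIR10 cDNA of all gene models with BWA, followed by SAMtools 0.1.7. How reads with several matches and strand were handled is not given in the sources used here. The table has 6 columns. The 4 that match the labelled libraries were used, and 2 that carry an additional mark beside replicate 1 were not. The amplicon libraries of the study were not analysed here.

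Positions and classes come from the RefSeq annotation of TAIR10.1, which matched 32835 loci (97.7%). It does not mark transposable element genes, so its pseudogene class stands for them and no family was assigned. Windows of 80 bases of each locus's longest transcript were searched exactly, on both strands, in the other transcripts, the nuclear genome and the organelle genomes (Python 3.11.15). Matches of AT4G06477 were found with blastn 2.17.0 at an E-value limit of 1e-05.

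Loci with at least 10 counts in at least 2 libraries were tested with edgeR 4.0.16 (robust quasi-likelihood test, TMM factors, Benjamini-Hochberg adjustment over all 16779 loci) without a block. The test was checked on simulated data. Log2 fold changes are ColA9 over C24A9, and standard errors come from the F statistic. Since the study's methods give replicate 2 of both crosses the same nuclease treatment, the number pairs the libraries, and the fit with a replicate block is given where it changes a call. Its common dispersion was 0.0733, against 0.209 without the block. Shares are of nuclear reads, with 95% Wilson intervals. Crosses were compared by exact permutation over libraries. Alternatives were DESeq2 1.42.0, other factors and filters, and leaving out each library.

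Named members were the 8 protein-coding loci, the 6 pseudogenes outside the insertion and the 5 insertion loci of highest level, the 5 of lowest p in each direction with the block, up to 4 of each role group, 5 seen in 1 library only, and members of the study's lists. Others were named after their values were seen. Members and lists were chosen with earlier results of these data known. The totals of 3538335 to 6498145 reads leave members with few reads undetermined.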

Additional observations from a re-analysis of the deposited data

Results flagged for a closer look

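The replicates of AT4G06477 moved in opposite ways in the crosses. On the log2 scale of TMM-scaled CPM plus 0.5, replicate 2 minus replicate 1 was -2.63 in ColA9 seeds and 2.12 in C24A9 seeds. Each cross has 1 library of each replicate number, and this difference was not tested.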

How the results depend on the processing

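Members called between the crosses numbered 0 in the test without a block, and 31 with the replicate block that the shared treatment of replicate 2 gives. They numbered 39 of 204 tested members with the block and RLE factors (19.1%, against 9.07% of all tested loci). With the block but without AT4G06477 and the organelle loci they numbered 33 of 203 (16.3%, against 6.905%). The block with no filter on low counts gave 99 of 2251 (4.398%, against 6.022%), a share below that of all tested loci. No filter and no block gave 65 of 2251 (2.89%, against 1.96%). DESeq2 called 18 of 204 (8.82%, against 1.8%), and 17 with the block (8.33%, against 4.88%). RLE factors, a minimum of 20 counts and leaving out loci that share windows gave 0 without the block, and leaving out 1 library gave 0 to 4, the 4 (AT3G30695, AT2G11240, AT4G07825 and SADHU4-1) without ColA9 replicate 2. The settings with RLE factors and the block, without AT4G06477, with the block and no filter, and DESeq2 with the block were chosen after seeing the data.

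The median log2 fold change of tested members, -0.10, was -3.51 with no filter and -3.01 with no filter and the block, since loci counted only in C24A9 replicate 2 then enter, and ranged from -0.15 to 0.13 over the fits that leave out 1 library, with 0.13 without C24A9 replicate 2. Of 32 single loci, AT2G09990 (-3.49 to 0.67 with 1 library left out) and AT2G07711 (-3.52 to 0.15) turned direction without C24A9 replicate 1, in fits without the block. The other values kept theirs under every alternative run. The 7 called loci with 0 reads in both libraries of ColA9 seeds could not turn direction. Leaving out either C24A9 library took these 7 below the filter, so they were not tested there. With 1 library left out, the lone library of a cross is assumed to vary like the others. The difference in the members' share of reads kept its direction, at 0.157 to 1.62 percentage points higher in C24A9 seeds with 1 library left out. That of their pseudogenes was 0.125 to 1.54 points and that of loci detected 33.3 to 1687 loci, the lowest each time without C24A9 replicate 2. With 2 libraries a cross, depth limits what can be said of loci with few reads.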
